A study of Mus musculus with 3 samples.

Results

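The BCL2 family decides whether mitochondria stay sealed or open in a dying cell. Its pro-survival proteins (BCL2, BCL-XL, MCL1 and A1) hold the pore-forming effectors BAX and BAK in check, and the BH3-only proteins (BIM, PUMA and NOXA) bind the pro-survival proteins or act on the effectors. In the mouse thymus BCL-XL is known for keeping CD4-positive CD8-positive (DP) thymocytes alive, BCL2 for early and mature stages, MCL1 for several stages, and BIM for the death of cells whose receptor binds self antigen strongly. The genes of PUMA, NOXA and BAX are textbook targets of p53, the damage-responsive transcription factor whose gene is Trp53.

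The 10 genes described here are Bcl2, Bcl2l1 (BCL-XL), Mcl1, Bcl2a1b and Bcl2a1d (copies of A1), Bcl2l11 (BIM), Bbc3 (PUMA), Pmaip1 (NOXA), Bax and Bak1. They were taken by symbol, and all 10 were found among the 32285 genes of the count tables. They were read in single-cell RNA libraries made from the thymus of female mice aged 4 weeks, in the 23864 cells with at least 500 genes and under 10% mitochondrial molecules. There were 3 libraries, 1 per genotype: p53 AD/- (6171 cells), p53-/- (9543 cells) and p53+/- (8150 cells). All are germline alterations on a mixed background, labelled BALB/C with C57BL7, C57BL8 and C57BL6 in that order, and each animal carries at least 1 minus allele. What the AD allele is, the labels leave unsaid, the series title speaks of p53 dimers, and the design text calls 1 group WT where its label reads p53+/-. The design asks how thymic cell populations compare between these mice. With 1 library per genotype no test between genotypes is possible, so every difference below is between libraries, and 95% intervals cover counting error only.

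Values are unique molecular identifiers (UMIs) summed over the cells of a class and scaled to the UMI total of that class as CPM. The p53 AD/- library held 27638820 UMIs, the p53-/- one 54164425 and the p53+/- one 46498800, with medians of 2484, 3062 and 3238.5 UMIs per kept cell in that order. Each pair of libraries shared 15 to 29 barcodes. The p53 AD/- cells had the lowest median share of the nuclear RNA Malat1 (2.80%, against 5.63% in p53-/- and 5.08% in p53+/-) and of mitochondrial UMIs (3.18%, against 3.69% and 4.07%). Trp53 itself was counted in every library, in quiescent DP-like cells at 71.7 CPM in p53 AD/-, 44.6 CPM in p53-/- and 59.0 CPM in p53+/-. Which part of Trp53 is missing from the null allele is not stated, so these counts do not check the genotype labels. The 6 erythroid markers summed in that class to 13.4 CPM in p53 AD/-, 102 CPM in p53-/- and 445 CPM in p53+/-.

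Cells fell into 6 thymocyte classes named from marker genes, with the family's own genes left out of the clustering. The class with Il2ra and Hes1 was named DN-like (double negative for CD4 and CD8) and numbered 55 cells in p53 AD/-, 151 cells in p53-/- and 96 cells in p53+/-. Cycling cells numbered 753, 1668 and 1044, and quiescent DP-like cells, led by Rag1 and Cd8b1, numbered 3332, 4574 and 4347, in the same order. A signalled class (cluster 9, with Nr4a1, Rel, Nfkb1 and Gadd45b among its leading genes) held 129, 291 and 201 cells. Cells named selected DP to early SP-like (SP for single-positive), led by Tox, Cd5 and Itm2a, numbered 1389, 1884 and 1871, and mature SP-like cells, led by Ms4a4b and Klf2, numbered 397, 746 and 468. The largest cluster of quiescent DP-like cells was a different one in each library. It was cluster 0 in p53 AD/- (2123 cells), cluster 1 in p53-/- (3115 cells) and cluster 2 in p53+/- (1974 cells, 45.4% of the class). Values within single clusters are therefore given below. Signalled cells are placed after the quiescent DP-like class for display, since the order of classes was not derived from these data.

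**Figure D1:**
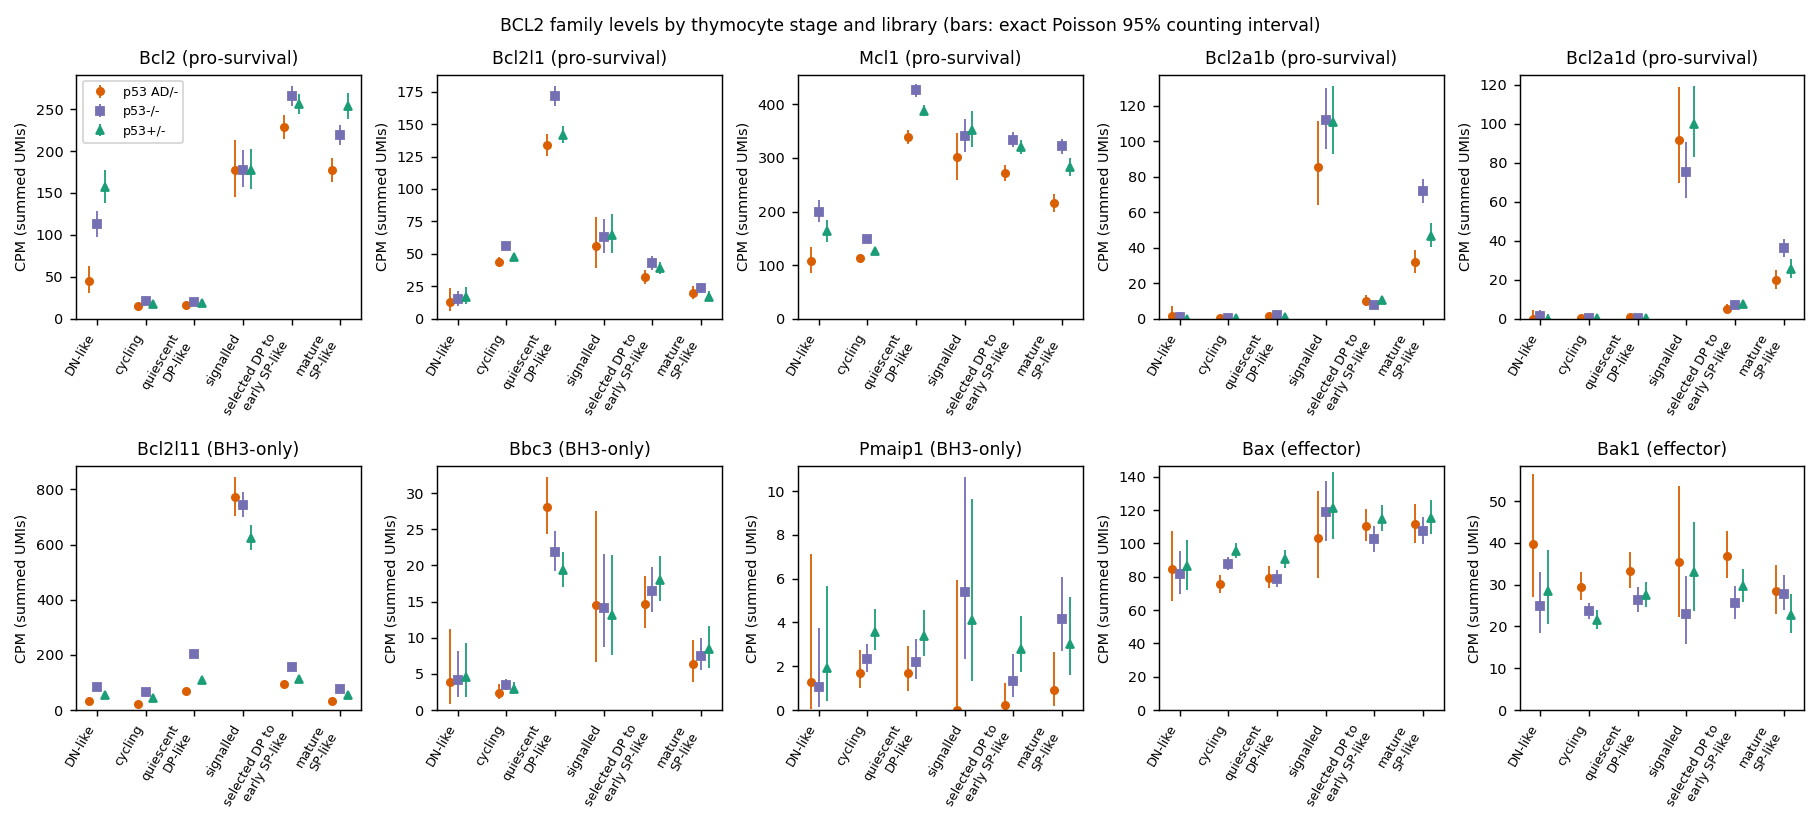
Level of each of the 10 genes in CPM of summed UMIs (vertical axis, from 0, a different scale in each panel) in the 6 thymocyte classes (horizontal axis) of the p53 AD/-, p53-/- and p53+/- libraries. Points are 1 library each and bars are exact Poisson 95% counting intervals. Bcl2l1 is highest in quiescent DP-like cells where Bcl2 is low, Bcl2l11 is highest in signalled cells, and Bax and Bak1 vary least.

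The pro-survival genes Bcl2 (chromosome 1, 106538178 to 106714274, minus strand, GRCm38) and Bcl2l1 (chromosome 2, 152780668 to 152831728, minus strand) changed places between stages, in the same way in each of the 3 libraries. Bcl2, which binds and holds BH3-only proteins and effectors, was high in DN-like cells, at 44.9 CPM in p53 AD/-, 112 CPM in p53-/- and 157 CPM in p53+/-. It was low in cycling cells (15.2, 20.6 and 17.99 CPM) and in quiescent DP-like cells (16.2, 19.9 and 19.2 CPM). It was high again in selected cells, with 228 CPM in p53 AD/-, 265 CPM in p53-/- and 256 CPM in p53+/-. Mature SP-like cells had 177, 219 and 253 CPM of Bcl2. The low stages of Bcl2 did not overlap with its high stages in any library.

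Bcl2l1, whose main product BCL-XL does the same work, ran the other way. It stood at 12.8 CPM in DN-like cells of p53 AD/-, 15.02 CPM of p53-/- and 16.8 CPM of p53+/-, and at 43.6, 56.2 and 47.4 CPM in cycling cells. Its peak was in quiescent DP-like cells, with 134 CPM in p53 AD/- (interval 125 to 142), 172 CPM in p53-/- (164 to 179) and 142 CPM in p53+/- (135 to 148). Selected cells held 31.9, 42.8 and 39.1 CPM and mature SP-like cells 19.7, 23.5 and 16.99 CPM. The peak was in the same class in all 3 libraries, and DN-like and mature SP-like cells had the lowest levels of Bcl2l1 in each. At the peak the p53-/- over p53+/- log2 ratio was 0.28 (0.19 to 0.37) and the p53 AD/- over p53+/- ratio was -0.08 (-0.20 to 0.03).

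Read together, mature SP-like cells over quiescent DP-like cells had a log2 ratio for Bcl2 of 3.45 in p53 AD/- cells, 3.46 in p53-/- cells and 3.72 in p53+/- cells. For Bcl2l1 the ratio was -2.76, -2.87 and -3.06. The change in the Bcl2 to Bcl2l1 ratio between the classes was 6.21 on the log2 scale in p53 AD/- (interval 5.74 to 6.70), 6.33 in p53-/- (6.01 to 6.65) and 6.78 in p53+/- (6.38 to 7.19). The 3 intervals overlap, and other ways of building the classes gave 5.64 to 6.91 in p53+/- alone. Capture differs between genes, so only the change of this ratio between stages is read, not its level.

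The change between classes can also be given as the share of Bcl2 among Bcl2 and Bcl2l1 UMIs. In quiescent DP-like cells this share was 10.8% in p53 AD/- (binomial interval 9.02 to 12.8), 10.4% in p53-/- (9.12 to 11.7) and 11.9% in p53+/- (10.5 to 13.4). The selected class was not uniform. Its cluster 4, which still held 430, 549 and 607 CPM of Rag1 in the same order, had shares of 50.0%, 53.6% and 51.5%. Its clusters 8 and 10, with 61.7 and 28.5 CPM of Rag1 over all libraries, had 92.8% and 94.3%. Cluster 4 was thus the class part with Bcl2 and Bcl2l1 counted about equally often, in each genotype. Equal counts do not mean equal levels, since capture differs between genes. Whether cluster 4 mixes cells with low and high shares was not tested. The signalled class lay between cluster 4 and clusters 8 and 10, at 75.9%, 73.9% and 73.4%.

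**Figure D2:**
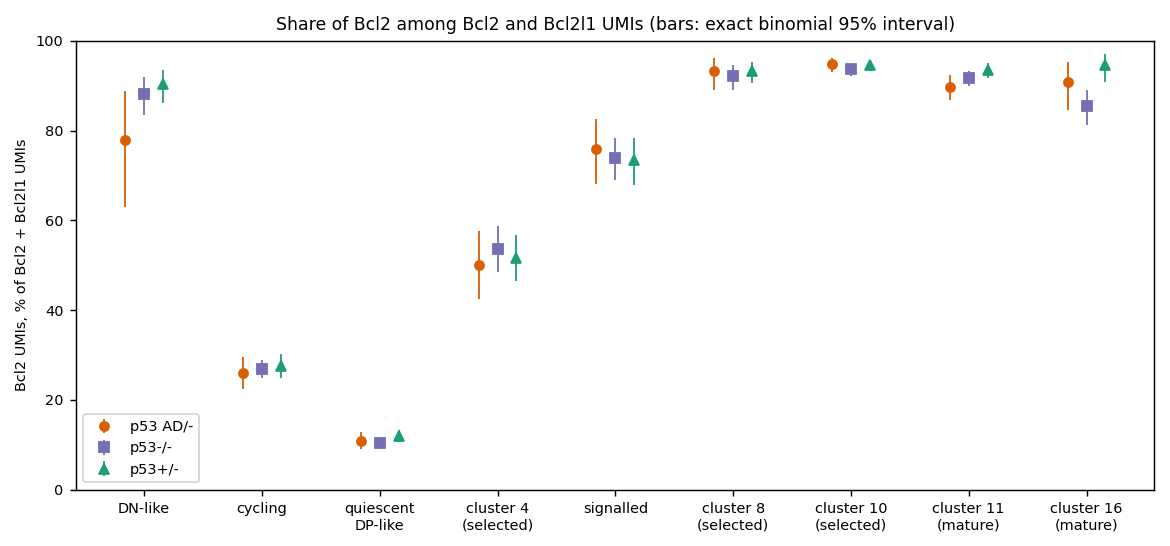
Share of Bcl2 UMIs among Bcl2 and Bcl2l1 UMIs (vertical axis, percent) in thymocyte classes and in the clusters of the selected and mature classes (horizontal axis), 1 point per library (p53 AD/-, p53-/-, p53+/-) with exact binomial 95% intervals. Quiescent DP-like cells sit near 10 to 12%, cluster 4 near 50% and clusters 8 and 10 above 90% in all 3 libraries.

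Free RNA in droplets sets a floor under such low values. In quiescent DP-like cells Bcl2 stood at 9.14% of its mature SP-like level in p53 AD/-, at 9.08% in p53-/- and at 7.56% in p53+/-. Ccr7, Ms4a4b and Il7r, which mark mature cells, stood at 0.693 to 2.86% by the same measure. In the opposite direction, Bcl2l1 in mature SP-like cells stood at 14.7%, 13.7% and 12.0% of its quiescent DP-like level, and the DP gene Rag1 at 4.92%, 6.10% and 4.23%. The remaining Bcl2 of DP-like cells and the remaining Bcl2l1 of mature cells were therefore above these yardsticks in each library. How much free RNA contributes to them was not tested.

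Within the mature class, cells were split after the data were seen by their CD4 and CD8 UMIs, which depends on depth. Cells with Cd4 and no Cd8a or Cd8b1 UMI had 145 CPM of Bcl2 in p53 AD/- (58 cells), 182 CPM in p53-/- (140 cells) and 215 CPM in p53+/- (96 cells). Cells with Cd8a or Cd8b1 and no Cd4 UMI had 213 CPM in p53 AD/- (172 cells), 288 CPM in p53-/- (274 cells) and 291 CPM in p53+/- (172 cells). Bcl2 was higher in the CD8 gate in all 3 libraries. Mcl1 was lower there in the same comparison, with 206, 302 and 245 CPM in the CD8 gate and 240, 349 and 300 CPM in the CD4 gate. The Mcl1 intervals of the gates overlap in each library, however, with 183 to 231 against 194 to 293 CPM in p53 AD/-. They were 280 to 326 against 315 to 387 CPM in p53-/- and 221 to 269 against 263 to 341 CPM in p53+/-. Foxp3, the regulatory T cell factor, was looked for in all 6 thymocyte classes together, not in the mature class alone. Cells with a Foxp3 UMI there had 183 CPM of Bcl2 in p53 AD/- (16 cells), 187 CPM in p53-/- (45 cells) and 485 CPM in p53+/- (21 cells), from 35, 60 and 67 UMIs. Cluster 16, the part of the mature class with cycling genes, had less Bcl2 (110, 116 and 158 CPM) than cluster 11 (210, 286 and 300 CPM).

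Between genotypes, Bcl2 in the mature class was lowest in p53 AD/-, with a log2 ratio of -0.52 (interval -0.66 to -0.37) over p53+/-. The ratio of p53-/- over p53+/- was -0.21 (-0.33 to -0.09). Both lie within 1.5-fold (0.58 on the log2 scale), the size used here to call a difference. In DN-like cells the p53 AD/- library had a ratio of -1.80 (-2.36 to -1.29) over p53+/-, and Il2ra, the DN marker, stood at 258 CPM in p53 AD/-, 470 CPM in p53-/- and 502 CPM in p53+/-. The DN-like classes thus differed in their own marker as well, and the part of class makeup in the Bcl2 value was not tested.

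Mcl1 (chromosome 3, 95658788 to 95663176, plus strand), whose short-lived protein guards thymocytes at many stages, was counted at every stage. In DN-like cells it stood at 108 CPM in p53 AD/-, 200 CPM in p53-/- and 163 CPM in p53+/-, and cycling cells had 114, 148 and 126 CPM. Quiescent DP-like cells held 339, 426 and 388 CPM and signalled cells 301, 341 and 353 CPM. In mature SP-like cells the levels were 215, 322 and 283 CPM. Selected cells held 271, 334 and 321 CPM. The highest value of Mcl1 was that of quiescent DP-like cells in p53 AD/-, p53-/- and p53+/- alike. Its interval overlapped that of signalled cells in p53 AD/- (325 to 352 against 259 to 347) and in p53+/- (377 to 399 against 320 to 388). Mature over DP the log2 ratios were only -0.65, -0.40 and -0.46. In quiescent DP-like cells Mcl1 had a p53 AD/- over p53+/- log2 ratio of -0.20 (-0.27 to -0.13), and the p53-/- over p53+/- ratio was 0.13 (0.08 to 0.19). The median of all genes in these comparisons was -0.03 and 0.10. TMM factors, a scaling that centres most genes, shifted the ratios by 0.03 and -0.099, the latter most of the 0.13. Among 17 clusters with all 3 libraries and enough Mcl1 UMIs, p53-/- was highest and p53 AD/- lowest in 13. That order was not counted over all genes, so it is not read as particular to Mcl1.

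The A1 copies Bcl2a1b and Bcl2a1d were near 0 in quiescent DP-like cells and appeared together in a few clusters. They lie near each other on chromosome 9 of GRCm38, Bcl2a1d at 88723285 to 88731914 on the minus strand and Bcl2a1b at 89199209 to 89207827 on the plus strand. Their transcripts share 810 of 817 aligned bases (99.1%), so reads may be split between the copies and each value is uncertain. Their promoters, from 250 bases before to 50 bases after the start in RefSeq's GRCm38.p6 table, share 247 of 256 aligned bases (96.5%). They are printed 5′ to 3′ because these genes moved together, with capitals marking a match to GCGTGGGCG, a site known for EGR factors, read on either strand.

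Bcl2a1b, chr9:89199023-89199322, plus strand: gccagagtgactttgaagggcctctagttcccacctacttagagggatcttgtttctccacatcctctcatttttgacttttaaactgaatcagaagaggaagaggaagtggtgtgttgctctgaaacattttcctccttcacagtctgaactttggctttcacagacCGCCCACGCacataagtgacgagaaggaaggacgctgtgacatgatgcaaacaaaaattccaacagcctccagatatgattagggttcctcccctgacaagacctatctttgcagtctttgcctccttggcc
Bcl2a1d, chr9:88731801-88732100, minus strand: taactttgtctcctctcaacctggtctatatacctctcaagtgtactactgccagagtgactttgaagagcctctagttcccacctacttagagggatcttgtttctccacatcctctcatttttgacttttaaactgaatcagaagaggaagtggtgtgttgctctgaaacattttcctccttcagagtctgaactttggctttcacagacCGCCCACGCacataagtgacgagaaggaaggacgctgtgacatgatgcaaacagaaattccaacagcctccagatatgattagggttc

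This motif was in 0.612% of 32851 promoters of the table, and in no other promoter among the 14 searched for 9 of the genes. Both A1 promoters also held TGANTCA (AP-1, 7.81% of promoters). No promoter of the 9 genes held the spaced pair of CATG cores of a p53 site (0.712% of promoters), which says only that these letters are not in these windows. GTAAACA, known for FOXO factors, was in the Bcl2l11 and Bbc3 promoters (3.65% of promoters), the NF-kappaB motif in those of Bcl2l1, Mcl1 and Bbc3 (1.63%), and AGGTCA (ROR) in 1 of Bcl2l1 (16.3%). The motifs were chosen with the expression values known, and a match describes letters, not binding.

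In the signalled class Bcl2a1b stood at 85.3 CPM in p53 AD/-, 112 CPM in p53-/- and 111 CPM in p53+/-, and Bcl2a1d at 91.7, 75.4 and 99.9 CPM. Quiescent DP-like cells had only 1.40, 1.93 and 1.02 CPM of Bcl2a1b and 0.698, 0.350 and 0.552 CPM of Bcl2a1d. In mature SP-like cells Bcl2a1b stood at 31.8 CPM in p53 AD/-, 71.8 CPM in p53-/- and 46.8 CPM in p53+/-. Most of that came from cluster 16, the mature cells with cycling genes, where Bcl2a1b had 68.3, 154 and 116 CPM, against 13.95, 18.4 and 12.5 CPM in cluster 11. Bcl2a1d in mature SP-like cells had 19.7, 36.1 and 25.6 CPM. The log2 ratio of Bcl2a1b in mature cells was -1.18 (-1.50 to -0.87) for p53 AD/- over p53-/-, but 0.025 when mature cells were gated by markers in place of clusters.

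Outside T cells both genes were high in the dendritic or macrophage-like cluster 14, with 402 CPM of Bcl2a1b and 222 CPM of Bcl2a1d over all libraries. The unnamed cluster 17 (Cd74, Krt17) had 216 and 254 CPM and the unnamed cluster 19 (Cd74, Cd79a) 265 and 107 CPM. Up to 11.1% of a library's Bcl2a1b UMIs were in 1 cell. In the signalled class the 9 dendritic or macrophage markers summed to 222 CPM in p53 AD/-, 161 CPM in p53-/- and 131 CPM in p53+/-, against 249, 202 and 167 CPM in quiescent DP-like cells. The part of doublets with such cells, or of their free RNA, in the A1 values of thymocyte classes was not tested.

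**Figure D3:**
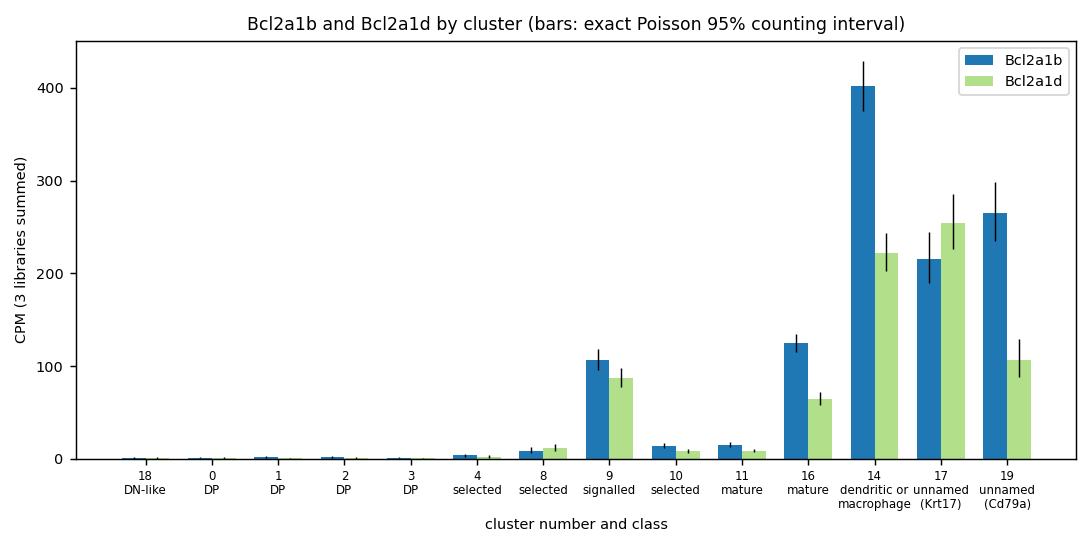
Level of Bcl2a1b and Bcl2a1d in CPM (vertical axis, from 0) by cluster (horizontal axis, with the class of each), the p53 AD/-, p53-/- and p53+/- libraries summed. Bars carry exact Poisson 95% counting intervals. Among thymocyte clusters only 9 and 16 stand above 50 CPM, and the clusters with Cd74 (14, 17 and 19) reach 107 to 402 CPM.

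Of the BH3-only genes, Bcl2l11 varied most. Its product BIM is known for killing strongly signalled thymocytes of the mouse. The gene lies on chromosome 2 of GRCm38 (128126038 to 128162547, plus strand), and its promoter is shown because the gene was past 1.5-fold in all 3 comparisons of libraries in quiescent DP-like cells, with the GTAAACA match in capitals.

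Bcl2l11, chr2:128125788-128126087, plus strand: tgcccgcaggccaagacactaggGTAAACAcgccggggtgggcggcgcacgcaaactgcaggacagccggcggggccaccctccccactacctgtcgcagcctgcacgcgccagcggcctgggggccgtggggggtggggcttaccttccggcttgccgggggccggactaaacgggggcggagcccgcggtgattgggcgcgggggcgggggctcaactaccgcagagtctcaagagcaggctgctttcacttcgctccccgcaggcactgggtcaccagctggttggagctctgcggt

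Along the stages Bcl2l11 peaked in the signalled class, with 772 CPM in p53 AD/- (interval 705 to 844), 744 CPM in p53-/- (701 to 790) and 625 CPM in p53+/- (581 to 671). Quiescent DP-like cells had 69.3, 202 and 110 CPM, and selected cells 93.1, 157 and 111 CPM. DN-like cells had 32.0, 83.9 and 53.8 CPM, cycling cells 22.1, 66.3 and 44.8 CPM, and mature SP-like cells 33.0, 75.3 and 54.5 CPM. The signalled class was above every other class in each library. Its log2 ratio over quiescent DP-like cells was 3.48 in p53 AD/- cells, 1.88 in p53-/- cells and 2.51 in p53+/- cells. Of 8 other clusterings 0 had a class that met the naming rule for signalled cells. In an alternative chosen after the data were seen, the T cell cluster with the highest sum of the signalled markers was taken in each of them. These ratios then ran from 1.84 to 4.12, from 0.86 to 2.98 and from 1.09 to 3.17. By the naming rule those clusters were selected DP to early SP-like, except at resolution 2, where the cluster was unnamed. In the signalled class itself the 8 selected markers summed to 3760 CPM in p53 AD/-, 2958 CPM in p53-/- and 2731 CPM in p53+/-. The 9 signalled markers summed to less there, with 2091, 2369 and 2036 CPM. The Treg marker list also summed to 2325, 2564 and 2245 CPM in the signalled class, against 129, 142 and 130 CPM in quiescent DP-like cells, and its part in the result was not tested.

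Between genotypes, quiescent DP-like cells had most Bcl2l11 in p53-/- and least in p53 AD/-. The log2 ratio was -0.66 (-0.81 to -0.51) for p53 AD/- over p53+/-, 0.88 (0.78 to 0.97) for p53-/- over p53+/- and -1.54 (-1.68 to -1.40) for p53 AD/- over p53-/-. These comparisons share libraries and are not independent. Over 14 alternatives the ratios kept their directions and ran from -0.86 to -0.47, from 0.48 to 0.87 and from -1.72 to -0.95 in the same order. In cells matched on Malat1 share (2043 per library) Bcl2l11 had ratios of -0.72, 0.77 and -1.50. Within cluster 0 it stood at 68.8 CPM in p53 AD/-, 132 CPM in p53-/- and 80.7 CPM in p53+/-, within cluster 2 at 94.9, 177 and 122 CPM, and within cluster 3 at 60.7, 199 and 100 CPM. In cluster 1, which held most p53-/- cells of the class, it stood at 37.2 CPM in p53 AD/- (3 UMIs), 212 CPM in p53-/- and 126 CPM in p53+/-. Cluster 5 had 68.8, 246 and 136 CPM on 3, 8 and 12 UMIs. The order of libraries was the same in all 5 quiescent DP-like clusters, though in clusters 1 and 5 the p53 AD/- value rests on 3 UMIs each.

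The same order of Bcl2l11 held in most other clusters and not in the signalled one. Of 16 clusters with all 3 libraries and at least 50 UMIs, p53-/- was above p53+/- in 14, p53+/- above p53 AD/- in 14, and the full order held in 12. The same order was not counted over all genes. In cycling cells the log2 ratios were -1.02 (-1.24 to -0.80) for p53 AD/- over p53+/-, 0.57 (0.44 to 0.69) for p53-/- over p53+/- and -1.59 (-1.80 to -1.38) for p53 AD/- over p53-/-. In mature SP-like cells they were -0.72, 0.47 and -1.19, and in selected cells -0.26, 0.49 and -0.75. In the signalled class they were 0.31 (0.14 to 0.47), 0.25 (0.12 to 0.39) and 0.05 (-0.10 to 0.21), so by summed UMIs p53 AD/- was not the lowest library there. The sign of the last ratio turned in 8 of 11 alternatives, down to -0.85, while p53 AD/- stayed above p53+/- in all 11. The share of signalled cells with a Bcl2l11 UMI, after thinning to 1500 UMIs, ran the other way on overlapping intervals, with 49.6% in p53 AD/- (40.5 to 58.7), 49.8% in p53-/- (43.8 to 55.8) and 52.8% in p53+/- (45.6 to 59.9). The unthinned shares were 72.1%, 71.8% and 72.6%. The order of libraries in the signalled class therefore depended on the measure. Whether the genotype ratios differ between classes was not tested.

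Nr4a1, an immediate-early gene of receptor signalling and one of the markers used to name the signalled class, had the same order of libraries as Bcl2l11 in quiescent DP-like cells. It stood there at 4.88 CPM in p53 AD/-, 76.8 CPM in p53-/- and 17.6 CPM in p53+/-, and in signalled cells at 264, 508 and 345 CPM, where Bcl2l11 had another order. Nr4a1 is given here because it moved with Bcl2l11 in quiescent DP-like cells, and its part in the Bcl2l11 values was not tested. Nr4a3 was also highest in p53-/- there (1.95, 10.3 and 2.76 CPM, same order), but Egr1 was nearly level (19.5, 20.2 and 19.9 CPM). In selected cells Egr1 was lowest in p53-/- (149, 69.5 and 130 CPM), as it was in signalled cells (116, 59.95 and 99.9 CPM). The order of Nr4a1 is therefore not read as that of receptor signalling genes in general.

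**Figure D4:**
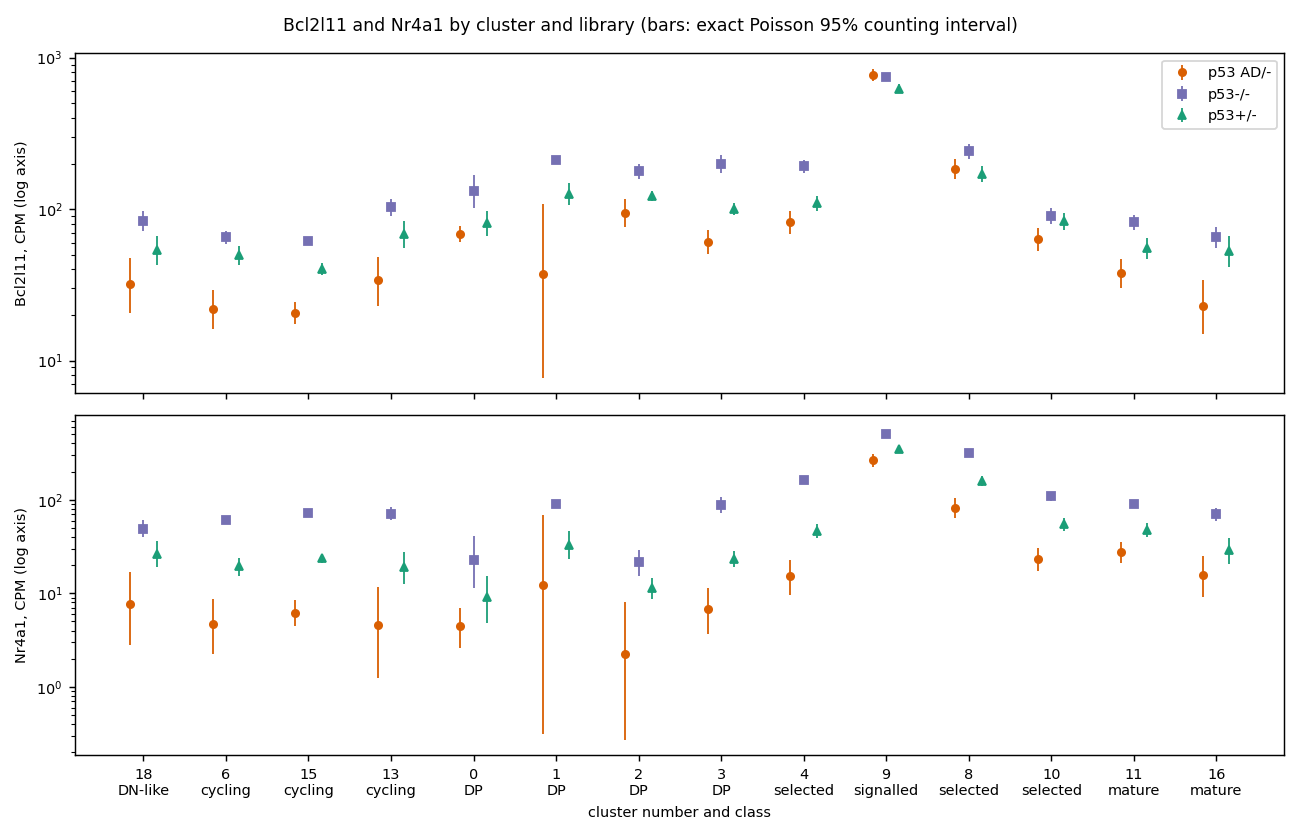
Level of Bcl2l11 (top) and Nr4a1 (bottom) in CPM on log axes, by thymocyte cluster (horizontal axis, with its class), 1 point per library (p53 AD/-, p53-/-, p53+/-) with exact Poisson 95% counting intervals. For Bcl2l11 the p53-/- points lie above those of p53+/- and p53 AD/- in the clusters drawn except cluster 9, while for Nr4a1 the p53-/- points are highest in each cluster drawn.

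Bbc3 (chromosome 7, 16308393 to 16318205, plus strand), the gene of PUMA, was highest in quiescent DP-like cells, with 28.0 CPM in p53 AD/- (24.3 to 32.2), 21.9 CPM in p53-/- (19.3 to 24.8) and 19.3 CPM in p53+/- (16.97 to 21.9). Selected cells had 14.6, 16.4 and 18.04 CPM, with an interval of 15.1 to 21.3 in p53+/- that overlaps the quiescent DP-like one, and signalled cells had 14.5, 14.1 and 13.2 CPM. Cycling cells had 2.42, 3.42 and 2.94 CPM and mature SP-like cells 6.35, 7.48 and 8.38 CPM. The stage pattern was present in the p53-/- library too. In quiescent DP-like cells the p53 AD/- over p53+/- log2 ratio was 0.54 (0.26 to 0.81), and the p53-/- over p53+/- ratio was 0.18 (-0.08 to 0.44). Bbc3 was thus not lower in p53-/- than in p53+/- at this stage, and a log2 ratio below -0.08 lies outside the counting interval.

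Pmaip1, the gene of NOXA, was rare in thymocytes. Quiescent DP-like cells held 1.67 CPM in p53 AD/- (12 UMIs), 2.19 CPM in p53-/- (25 UMIs) and 3.39 CPM in p53+/- (43 UMIs). Cycling cells held 1.71 CPM (17 UMIs), 2.32 CPM (55 UMIs) and 3.59 CPM (61 UMIs). The log2 ratios in quiescent DP-like cells for p53 AD/- over p53+/- and for p53-/- over p53+/- were -1.02 (-2.08 to -0.07) and -0.63 (-1.40 to 0.11). In cycling cells they were -1.06 (-1.93 to -0.27) and -0.63 (-1.18 to -0.08). Pmaip1 thus had its lowest value in p53 AD/- and its highest in p53+/- in both classes, on few UMIs. The intervals of p53 AD/- and p53-/- overlap, at 0.865 to 2.92 against 1.42 to 3.23 CPM in quiescent DP-like cells. In cycling cells they were 0.999 to 2.75 against 1.75 to 3.02 CPM, so the order of these libraries is not resolved. Up to 9.30% of a library's Pmaip1 UMIs were in 1 cell. The signalled class of p53 AD/- had 0 UMIs, with an interval up to 5.93 CPM, beside 5.39 CPM in p53-/- (2.33 to 10.6) and 4.13 CPM in p53+/- (1.34 to 9.63). The 3 intervals overlap, so no difference in Pmaip1 was detectable in that class. The dendritic or macrophage-like cluster 14 had 71.6 CPM over all libraries, and the part of free RNA from such cells in the thymocyte counts was not tested.

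The effectors Bax (chromosome 7, 45461697 to 45466898, minus strand) and Bak1 (chromosome 17, 27019810 to 27029009, minus strand), either of which can form the pore, varied least. Over the 6 classes and 3 libraries Bax ranged between 75.4 and 121 CPM and Bak1 between 21.6 and 39.7 CPM. In quiescent DP-like cells Bax stood at 79.5 CPM in p53 AD/-, 78.8 CPM in p53-/- and 90.7 CPM in p53+/-, and mature SP-like cells had 111, 107 and 115 CPM. Its mature over DP log2 ratios were 0.49, 0.45 and 0.35. Between genotypes, Bax in quiescent DP-like cells had a p53 AD/- over p53+/- log2 ratio of -0.19 (-0.34 to -0.04) and a p53-/- over p53+/- ratio of -0.20 (-0.33 to -0.08). Bak1 had 33.2, 26.3 and 27.5 CPM in quiescent DP-like cells and 28.4, 27.8 and 22.8 CPM in mature SP-like cells. Its log2 ratio for p53 AD/- over p53+/- was 0.27 (0.03 to 0.51) in quiescent DP-like cells and 0.45 (0.22 to 0.68) in cycling cells. Neither gene passed 1.5-fold between libraries in the quiescent DP-like class, or between mature and quiescent DP-like cells when scaled by UMI totals. With TMM factors over stages, a scaling that centres most genes, Bax had mature over DP log2 ratios of 0.77, 0.71 and 0.62 and passed in all 3 libraries, while Bak1 did not pass.

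**Figure D5:**
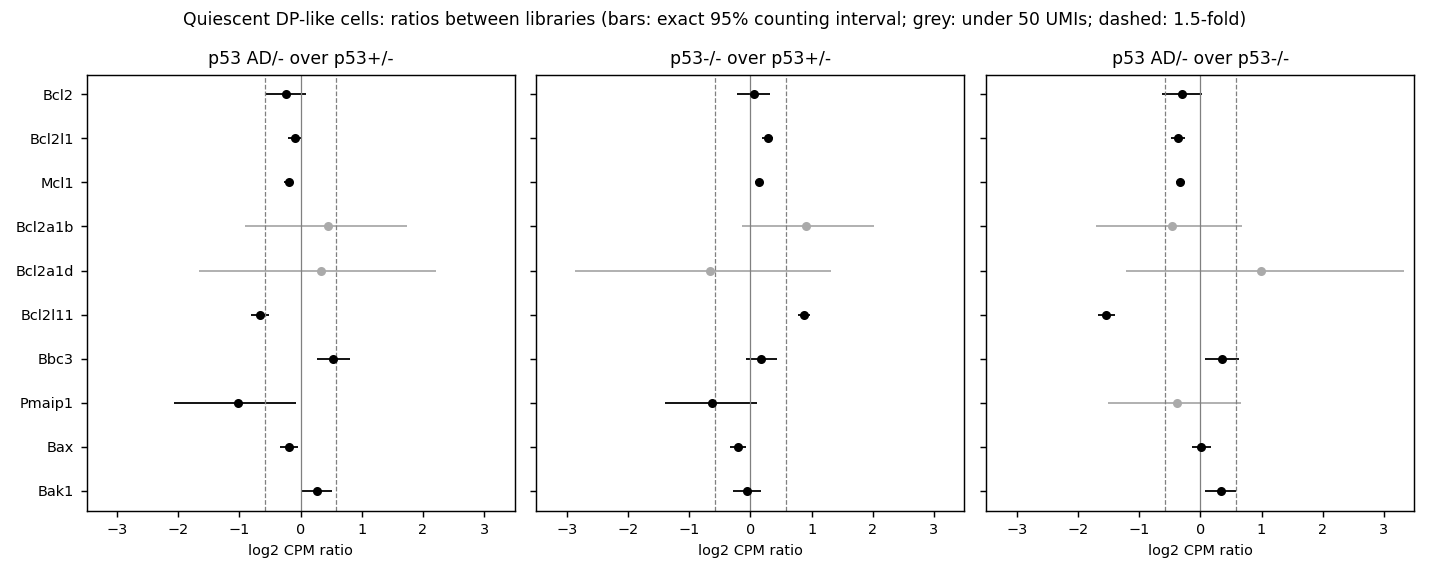
Log2 CPM ratio (horizontal axis) of each of the 10 genes (vertical axis) in quiescent DP-like cells for p53 AD/- over p53+/-, p53-/- over p53+/- and p53 AD/- over p53-/-, with exact 95% counting intervals. Grey points have under 50 UMIs over the pair and dashed lines mark 1.5-fold. Bcl2l11 lies past 1.5-fold in all 3 pairs, at -0.66, 0.88 and -1.54.

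Counted over the family, 2 of 8 genes with at least 50 UMIs passed 1.5-fold for p53 AD/- over p53+/- in quiescent DP-like cells, Bcl2l11 and Pmaip1, both lower. Of all 10020 genes with that many UMIs 18.3% passed. For p53-/- over p53+/- it was 2 of 8, Bcl2l11 higher and Pmaip1 lower, against 7.26% of 10441 genes. For p53 AD/- over p53-/- it was 1 of 7, Bcl2l11, against 25.8% of 10000 genes. The median log2 ratio of the family was -0.19, 0.09 and -0.30 in that order, beside -0.03, 0.10 and -0.12 for all genes. Counts of 1 or 2 genes do not set the family apart from that background. Bcl2l11 was the only one of the 10 past 1.5-fold with enough UMIs in all 3 comparisons. The share of all genes that pass in all 3 was not counted, so this is not read as particular to Bcl2l11. The ratio of the last comparison also follows from the other 2.

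Mature over quiescent DP-like cells, 7 of 9 members passed in p53 AD/- (3 higher, 4 lower), 7 of 10 in p53-/- (4 higher, 3 lower) and 6 of 10 in p53+/- (3 higher, 3 lower). The share of all genes past 1.5-fold was 55.5%, 54.0% and 53.7%, so a count of this size is near the background. TMM factors over stages added 0.28, 0.26 and 0.27 to these log2 ratios, and 4 members were then higher and 3 lower in p53 AD/-, 5 and 3 in p53-/-, and 4 and 3 in p53+/-. Of all calls 43.5%, 48.1% and 45.7% were then to the higher side, against 26.6%, 31.0% and 28.5% by UMI totals. Bcl2, Bcl2a1b and Bcl2a1d were higher and Bcl2l1, Bcl2l11 and Bbc3 lower in all 3 libraries. Mcl1 passed in p53 AD/- alone (-0.65, but -0.37 with TMM factors over stages), and Pmaip1 in p53-/- alone (0.92, 0.07 to 1.77). For Bcl2l11 the direction depended on the classes in p53 AD/-, where the ratio was -1.07 but 0.29 at Leiden resolution 0.5 and 0.069 with marker gates.

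Of 16 other BCL2 family genes, 0 of the 7 or 8 with enough UMIs passed 1.5-fold in any of the 3 genotype comparisons of quiescent DP-like cells. With TMM factors 1 of 7 did, Bcl2l12, higher in p53 AD/- over p53-/-. Mature over quiescent DP-like cells, 5 of 7 were lower in p53 AD/-, 6 of 7 in p53-/- and 5 of 7 in p53+/-, and none was higher. All genes leaned the same way, with 40.7%, 37.3% and 38.4% of them lower and 14.8%, 16.7% and 15.3% higher. The median log2 ratio of the list was -0.84, -0.82 and -0.74, beside -0.41, -0.35 and -0.39 for all genes. Bmf, a BH3-only gene, had the largest difference, with 4.84 CPM in mature and 22.3 CPM in quiescent DP-like cells of p53 AD/- (log2 -2.20), 2.70 and 28.8 CPM in p53-/- (-3.41), and 2.56 and 29.8 CPM in p53+/- (-3.54). Bid, a BH3-only gene cut by caspase 8, had -1.66, -1.07 and -1.46. Bad, another BH3-only gene, and Bnip3 and Bnip3l, known for the removal of mitochondria, were lower in each library as well. With TMM factors over stages 3 of 7, 2 of 7 and 3 of 7 were lower, Bmf and Bid in each library.

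Of 13 genes of the apoptosis machinery outside the family, 13 had enough UMIs in quiescent DP-like cells. The number past 1.5-fold was 2 for p53 AD/- over p53+/-, 0 for p53-/- over p53+/- and 3 for p53 AD/- over p53-/- (2 higher, 1 lower), beside the 18.3%, 7.26% and 25.8% of all genes, so these counts do not set the list apart. With TMM factors the last became 4 higher and 1 lower. For p53 AD/- over p53+/-, Cycs (cytochrome c) was higher, with 188 CPM in p53 AD/- against 123 CPM in p53+/- (log2 0.61, 0.50 to 0.71). Apaf1, the scaffold that cytochrome c binds, was lower, with 12.3 CPM in p53 AD/- against 24.3 CPM in p53+/- (-0.98, -1.34 to -0.64). For p53 AD/- over p53-/-, Cycs (0.62) was higher and Apaf1 (-1.03) was lower. In p53-/- Apaf1 stood at 25.1 CPM. Apaf1 was thus low in the p53 AD/- library and near equal in p53-/- and p53+/-.

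Genes with the most similar pattern were sought for Bcl2, Bcl2l1 and Bcl2l11 over the 18 sums of 6 classes and 3 libraries, among 8792 genes, by Pearson's r on log2(CPM + 10). For Bcl2 they were Chd3, St3gal1, Cd53, Lcp1 and Id2 (r of 0.95 to 0.94, median of all genes -0.03). For Bcl2l1 they were Stx6, Smim13, Kdm1b, Ntn1 and Tubb2a (0.95 to 0.92, median 0.26). For Bcl2l11 they were Serp1, Kdm2b, Pfkfb3, Zc3h12a and Dusp4 (0.95 to 0.93, median 0.14). The 18 sums share libraries and classes, so these values describe likeness of pattern and carry no test.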

How the data were processed

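Single-cell RNA of the thymus was measured in 3 libraries, 1 per p53 genotype, and the genotype labels gave the groups. Raw UMI counts per gene and barcode were deposited. Per the file headers the authors used Cell Ranger 4.0.0, and the genome was GRCm38 per the submitters' processing notes. Annotation, chemistry and strand are not given in the sources used. How well reads of Bcl2, Bcl2a1d and Bak1 were kept apart from those of genes overlapping them on the other strand could therefore not be checked. Those genes (D630008O14Rik, Gm10634 and Ggnbp1) were counted on their own, with 28, 21 and 186 UMIs. On the same strand the protein-coding Gm29094 overlaps Bcl2a1b and Gm45808 overlaps Bax, and neither was among the genes counted. Gene positions are from GENCODE M21 (GRCm38).

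Cells with at least 500 genes and under 10% mitochondrial UMIs were kept (97.8% of p53 AD/-, 96.5% of p53-/- and 91.8% of p53+/- barcodes). Scrublet called 1 barcode in all, which is too few to have worked, and doublets were kept. Cells were clustered in scanpy 1.11.5 and igraph 0.11.9 (Python 3.11.15, scipy 1.17.1) without batch integration: counts scaled to 10000 per cell and log-transformed, 2000 variable genes without the BCL2 family, receptor segment, mitochondrial and ribosomal genes, 30 components, 15 neighbours, Leiden resolution 1. A cluster was named from a marker list with at least 3 markers detected in 5% of its cells and the most markers among its top 10 genes. Clusters with several keratins stayed unnamed.

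UMIs were summed per class and library as CPM with exact Poisson intervals, ratios with exact conditional binomial intervals and shares with exact Clopper-Pearson intervals, at 95% and for counting error only. Genes needed at least 50 UMIs over a pair to be counted past 1.5-fold. No test was made, since each genotype had 1 library. On simulated data with 200 genes changed by a fold of 2, intervals held the true ratio for 95.5%, 95.5% and 95.4% of genes and 97.5%, 98.0% and 96.4% of changed genes passed, for p53 AD/- over p53+/- (10023 genes), p53-/- over p53+/- (10421 genes) and p53 AD/- over p53-/- (9987 genes). Of unchanged genes 1.67%, 1.25% and 1.76% passed in that order. The simulated counts held counting error only, the same model as the intervals. Coverage near 95% was thus built in, and differences between animals or preparations were not simulated.

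Named were all 10 members, genes of the other BCL2 family and machinery lists past 1.5-fold, the 5 genes most like Bcl2, Bcl2l1 and Bcl2l11 with at least 500 UMIs, Trp53 and stage markers. Some genes that the rule selects are not reported here. Apaf1 in p53-/- over p53+/- was named after its values were seen. Members, lists and rules were chosen with earlier results of these data known. The alternatives tried were cells with under 5% mitochondrial UMIs, cells with 1000 genes or more, the family kept in clustering, resolutions 0.5 and 2, 3000 variable genes, each library alone, highest Scrublet scores left out, marker gates in place of clusters, factors by median of ratios or by TMM (edgeR 4.0.16 on R 4.3.3), means over cells, Malat1-matched cells, all cells together, cells thinned to 1500 UMIs, a fold of 2, and minimums of 20 UMIs or none.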

Additional observations from a re-analysis of the deposited data

How the results depend on the processing

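The switch from Bcl2l1 to Bcl2 kept its direction in all alternatives run. On the log2 scale it became 5.95 in p53-/- and 5.72 in p53+/- with under 5% mitochondrial UMIs, 6.15 in p53+/- with the family kept in clustering, 6.22 in p53+/- at resolution 0.5, 7.19 in p53 AD/- and 6.84 in p53-/- at resolution 2, 6.33 in p53+/- with 3000 variable genes, 6.91 in p53 AD/- and 6.89 in p53-/- with the highest Scrublet scores left out, and 5.77 in p53-/- and 5.64 in p53+/- with marker gates. The order of the 3 libraries in the switch therefore depended on these choices.

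Counts of members past 1.5-fold in quiescent DP-like cells were small and moved. For p53 AD/- over p53+/- the count of 2 became 1 with under 5% mitochondrial UMIs, with Malat1-matched cells, with a fold of 2 and with all cells together. For p53-/- over p53+/- the count of 2 became 1 with under 5% mitochondrial UMIs, with each library alone, without the highest Scrublet scores and with Malat1-matched cells, 0 with a fold of 2 and with all cells together, and 4 with no minimum of UMIs. For p53 AD/- over p53-/- the count of 1 became 2 with marker gates, with no minimum and with all cells together. The cause was not tested.

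Of 3362 values of single genes under alternatives, 2778 stayed within the criteria of the main value, 578 moved and 6 past 1.5-fold changed sign. A further 279, whose main value lay within 1.5-fold, changed sign, among them Bcl2l11 in signalled cells of p53 AD/- over p53-/-. The 6 were Bcl2l11 mature over DP in p53 AD/- (0.29 at resolution 0.5 and 0.069 with marker gates), Bcl2a1b and Bcl2a1d mature over selected in p53+/- (-0.25 and -0.79 with each library alone), Bcl2a1b in mature cells of p53 AD/- over p53-/- (0.025 with marker gates) and Pmaip1 cycling over DN-like in p53-/- (-2.88 as the share of thinned cells). TMM scaling shifted p53 AD/- over p53+/- by 0.03, p53-/- over p53+/- by -0.099 and p53 AD/- over p53-/- by 0.13 on the log2 scale. The share of all calls to the higher side became 39.2%, 51.3% and 43.0% with TMM, against 33.8%, 68.9% and 23.3% by UMI totals. TMM over stages shifted mature over quiescent DP-like cells by 0.26 to 0.28. No paired analysis was possible because each genotype had 1 library.

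With 1 library per genotype, animal, preparation and genotype cannot be told apart. Pmaip1, Bbc3 and the A1 genes rest on few UMIs in several classes. In signalled cells of p53 AD/- Pmaip1 had 0 UMIs. The classes were built from genes that move with the family even though its own genes were left out, and the p53 AD/- cells were shallower and lower in Malat1.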
